A study of Saccharomyces cerevisiae with 12 samples.

Results

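Genes of glycolysis and alcoholic fermentation supplied a large part of the reads that a deposited table of splice forms places on protein-coding genes of budding yeast, Saccharomyces cerevisiae. The rows described here are those whose listed host is TDH3 (YGR192C), TDH2 (YJR009C), PGK1 (YCR012W), CDC19 (YAL038W), ENO1 (YGR254W), ENO2 (YHR174W), FBA1 (YKL060C), PDC1 (YLR044C), GPM1 (YKL152C) or ADH1 (YOL086C). They numbered 455 of the 6195 listed forms, in 10 of 1937 hosts. The rule goes by gene name and holds no read count, but the genes were chosen with earlier results of these data known. A form is a stretch of genome, given by its first and last base, that reads skip, and its count in a library is the number of reads assigned to that skip. The rows held 239910 reads, 55.9% of the 428969 reads on all protein-coding hosts and 6.94% of the whole table, in which the signal recognition particle RNA gene SCR1 alone held 81.7%.

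The study sequenced ribosomal RNA-depleted RNA from 12 cultures, 1 library for each of 6 genotypes at 25 °C and at 37 °C. By their labels, all strains were haploid BY4741 derivatives of mating type a that carry his3Δ1, leu2Δ0, met15Δ0 and ura3Δ0, grown in the rich medium YPD. The genotypes were wild type (WT), set1Δ, set2Δ, prp43-1, prp43-1 set1Δ and prp43-1 set2Δ, so that 6 libraries carried PRP43 and 6 carried prp43-1. Set1 and Set2 are histone H3 methyltransferases, and Prp43 is the helicase that takes spliceosomes apart. The growth protocol names 25 °C for each culture, and the length of the exposure to 37 °C is not given in the sources used here. Each combination of genotype and temperature is 1 library, so the spread behind each test is the residual of the model over all 12 libraries, and both libraries of a strain were treated as independent.

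Glycolysis splits glucose into pyruvate with a net gain of ATP, and yeast growing on glucose sends most of that pyruvate on to ethanol and carbon dioxide, which regenerates the NAD+ that glycolysis consumes. The enzymes of this route are among the most abundant proteins of a fermenting yeast cell, and their mRNAs among the most abundant messages. In the order of the route, FBA1 encodes the aldolase that splits fructose 1,6-bisphosphate, TDH2 and TDH3 encode glyceraldehyde-3-phosphate dehydrogenases, PGK1 phosphoglycerate kinase, GPM1 phosphoglycerate mutase, ENO1 and ENO2 enolases, CDC19 the main pyruvate kinase, PDC1 the main pyruvate decarboxylase and ADH1 the main alcohol dehydrogenase of fermentation. Each of the 10 coding sequences is annotated in R64 as 1 uninterrupted segment, with no intron.

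The gaps with the most reads are shown first because 6 of them carried most of the signal. Skipped bases are in capitals and 15 kept bases on each side in lower case, 5′ to 3′ on the coding strand, read from the R64 RefSeq genome at the coordinates of the table.
TDH3 chrVII:882981-882992 minus strand: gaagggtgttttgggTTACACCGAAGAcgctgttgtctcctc
TDH3 chrVII:883541-883552 minus strand: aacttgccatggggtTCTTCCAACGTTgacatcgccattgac
TDH2 chrX:454406-454417 minus strand: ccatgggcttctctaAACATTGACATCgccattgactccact
PGK1 chrIII:138591-138602 plus strand: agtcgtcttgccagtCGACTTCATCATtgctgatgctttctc
CDC19 chrI:72707-72717 plus strand: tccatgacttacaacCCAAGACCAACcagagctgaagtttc
FBA1 chrXI:327048-327059 minus strand: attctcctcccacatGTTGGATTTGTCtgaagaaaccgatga
These 6 gaps held 204349 reads, 85.2% of the reads on the 10 genes. The CDC19 gap is 11 nt long, the shortest length in the whole table, and the other 5 are 12 nt. None of the 6 begins with GT and ends with AG, the ends of nearly all yeast introns.

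A second set shows forms with fewer reads that the comparisons turn on, or that carry intron-like ends or long repeats. The first 5 are printed whole.
PDC1 chrXII:233017-233034 minus strand: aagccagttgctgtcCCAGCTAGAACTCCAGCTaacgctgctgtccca
PDC1 chrXII:233584-233601 minus strand: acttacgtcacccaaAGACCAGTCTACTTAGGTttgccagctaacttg
ENO2 chrVIII:451529-451570 plus strand: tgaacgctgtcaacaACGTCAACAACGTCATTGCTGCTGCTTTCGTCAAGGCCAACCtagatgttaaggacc
ENO1 chrVII:1001012-1001038 plus strand: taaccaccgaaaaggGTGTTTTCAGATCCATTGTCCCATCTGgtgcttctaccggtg
GPM1 chrXI:164160-164180 minus strand: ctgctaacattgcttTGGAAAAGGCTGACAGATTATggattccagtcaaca
Longer gaps are shown by their ends, with 15 kept and 15 skipped bases at each.
ENO2 chrVIII:452122-452307, 5′ end: ttggacttcaagaacCCAGAATCTGACAAA
ENO2 chrVIII:452122-452307, 3′ end: TTGACTGTCACCAACccagctagaattgct
ENO2 chrVIII:451490-452137, 5′ end: gagatgaagacaaatCCAAGTGGATGGGTA
ENO2 chrVIII:451490-452137, 3′ end: CAGAATCTGACAAATccaagtggttgactg
PGK1 chrIII:138455-138859, 5′ end: tcatcattggtggtgGTATGGCTTTCACCT
PGK1 chrIII:138455-138859, 3′ end: TCATCATTGGTGGTGgtgacactgccactg
CDC19 chrI:71999-73174, 5′ end: gccagaaagtccgaaGAATTGTACCCAGGT
CDC19 chrI:71999-73174, 3′ end: CGTATCAACTTCGGTattgaaaaggctaag
ADH1 chrXV:160131-160211, 5′ end: cggttctttccaacaATACGCTACCGCTGA
ADH1 chrXV:160131-160211, 3′ end: CCCCATCTTGTGTGCtggtatcaccgtcta
PDC1 chrXII:233643-233885, 5′ end: acgctcgtatcaaggGTATGTCTTGTATCA
PDC1 chrXII:233643-233885, 3′ end: TTGCTACCGCCCCAGctgaaattgacagat
In the PGK1 gap of 405 nt the bases before the gap recur at its end, an exact repeat of 17 nt that was the longest among the 455 forms, and the ENO2 gap of 648 nt from 451490 has one of 15 nt. Where such a repeat flanks a gap, the same reads could be aligned with the gap at any point along the repeat.

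The forms lay within the coding sequences of their hosts in 454 of 455 cases. By gene, PDC1 had 95 forms, TDH3 91, ADH1 67, ENO2 56, CDC19 54, PGK1 39, FBA1 31, ENO1 10, GPM1 7 and TDH2 5. Of all forms, 266 had at least 10 reads over the 12 libraries, 80 were seen in every library, 55 in 1 library, and 1 form, in FBA1, had 0 reads. With each coding sequence cut into 3 equal parts, the part nearest the stop codon held 98 forms with 163059 reads, the part nearest the start codon 164 forms with 27159 reads and the middle 193 forms with 49692 reads. The most-read TDH3 gap lies in the part nearest the stop codon and supplied 137517 of its reads. The 2 CDC19 rows at 72076 to 72329 share 1 position, with 34 and 14 reads.

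**Figure D1:**
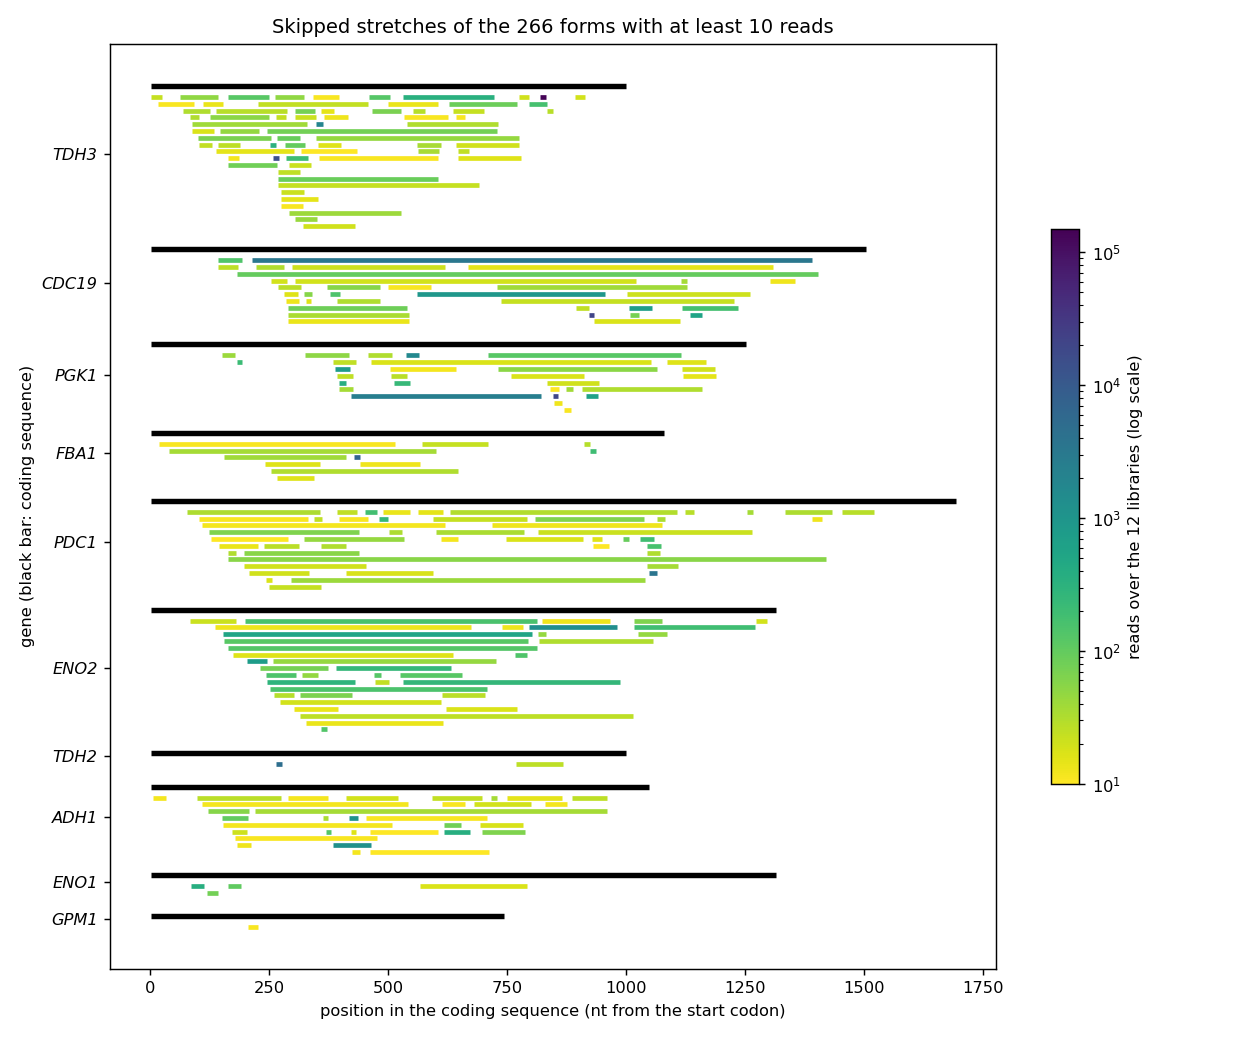
Position of the skipped stretch of each of the 266 forms with at least 10 reads, in nt from the start codon on the x axis, stacked by gene under a black bar that marks the coding sequence, with colour giving the reads over the 12 libraries on a log scale. The darkest marks are short gaps in TDH3, CDC19 and PGK1, while ENO2, PDC1 and ADH1 carry many overlapping longer gaps with fewer reads.

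Reads were unevenly spread among the genes. TDH3 held 157302 reads, 65.6% of the total, followed by CDC19 with 27521, PGK1 with 27249, FBA1 with 7295, PDC1 with 5787, ENO2 with 5626, TDH2 with 4820, ADH1 with 3704, ENO1 with 578 and GPM1 with 28. In scaled CPM (reads relative to the scaled column total) per kb of coding sequence, the median over the 12 libraries was 45559 for TDH3, with a range of 30803 to 61270. PGK1 followed at a median of 5853 CPM per kb (range 3647 to 12121) and CDC19 at 4718 (range 3555 to 8750), and their ranges overlapped. FBA1 had a median of 1963 CPM per kb, with a range of 1238 to 2520. ENO2, TDH2, ADH1 and PDC1 had medians of 1075, 1053, 1024 and 953 CPM per kb, and the order among these 4 was not larger than the spread between libraries. ENO1 had a median of 105 CPM per kb and GPM1 of 11.5, with 3 libraries at 0 reads for GPM1.

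These levels are of gap-spanning reads only. The table holds no count of reads without a gap, so fewer transcripts and fewer gaps per transcript cannot be told apart, here and in each comparison that follows.

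**Figure D2:**
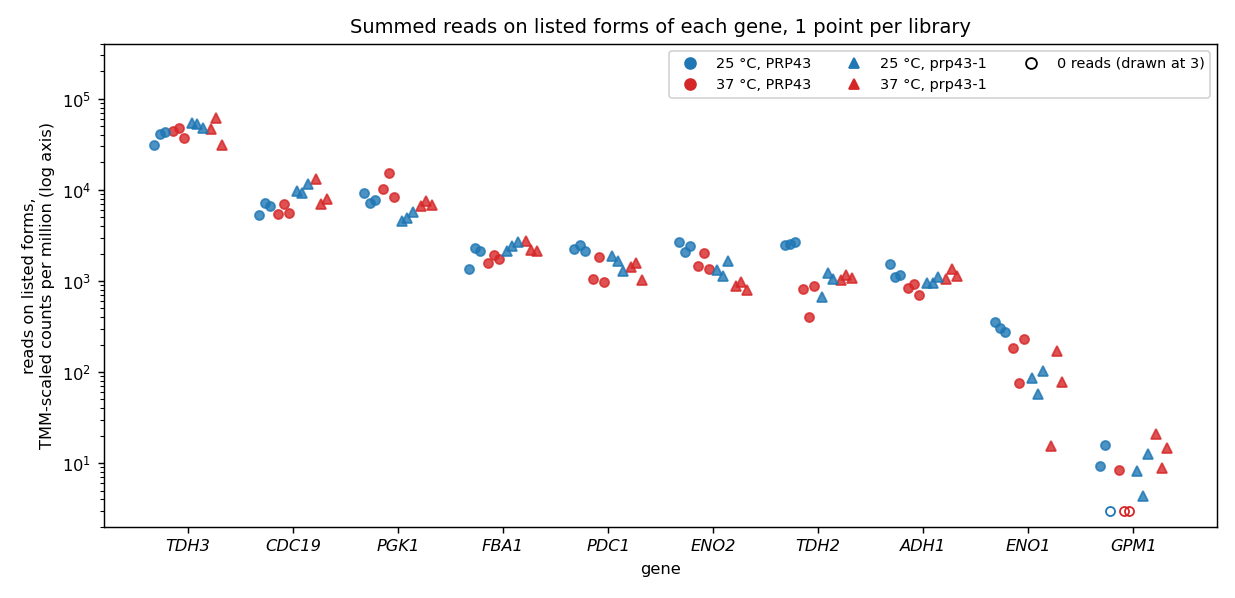
Reads summed over the listed forms of each gene, in TMM-scaled CPM on a log axis, with 1 point per library, colour for temperature and shape for the PRP43 allele. TDH3 lies above every other gene in each library, and TDH2 is high in the 3 PRP43 libraries at 25 °C, between 2469 and 2681.

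In 6 genes a single gap held over 50% of the reads of the gene in every library. The most-read gap took 87.4% of TDH3 reads over all libraries, from 84.5% (95% Wilson interval 83.7 to 85.2) in set2Δ at 37 °C to 93.1% (92.7 to 93.6) in set1Δ at 37 °C. For TDH2 the share was 99.4%, for FBA1 93.1%, for CDC19 74.7%, for PGK1 73.8% and for PDC1 61.7%. The 27-nt gap of ENO1 held 62.5% of its reads, but the shares per library rest on 3 to 114 reads. ENO2 and ADH1 had no such form: the most-read ENO2 gap, of 186 nt, held 23.9% of ENO2 reads and the most-read ADH1 gap, of 81 nt, 32.7% of ADH1 reads. GPM1 had a most-read gap of 21 nt with 11 reads in all. Intervals cover counting error only.

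The length of the gaps was divisible by 3 more often than not. This held for 280 of the 455 forms, 61.5% (Wilson interval 57.0 to 65.9), and for forms with 89.3% of the reads. The read share rests largely on the most-read TDH3 gap, of 12 nt, which held 137517 of the 239910 reads. Over the 5211 forms of other protein-coding hosts the share of forms was 48.9%, and over the 4187 of these in hosts without an annotated intron 51.4%. By reads these shares were 73.3% and 77.6%. In cell wall genes 68.6% of forms had such a length. Among forms with at least 10 reads the share was 67.3% here and 69.4% in other hosts without an intron, so the members were not above other hosts there. By gene, 33 of 39 PGK1 forms and 40 of 56 ENO2 forms had such a length, against 27 of 54 CDC19 forms and 50 of 91 TDH3 forms. The 11-nt gap of CDC19 is not divisible by 3, so forms with such a length held 22.8% of CDC19 reads. Overlapping forms share their sequence and are not independent, and these shares are descriptions without a test.

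**Figure D3:**
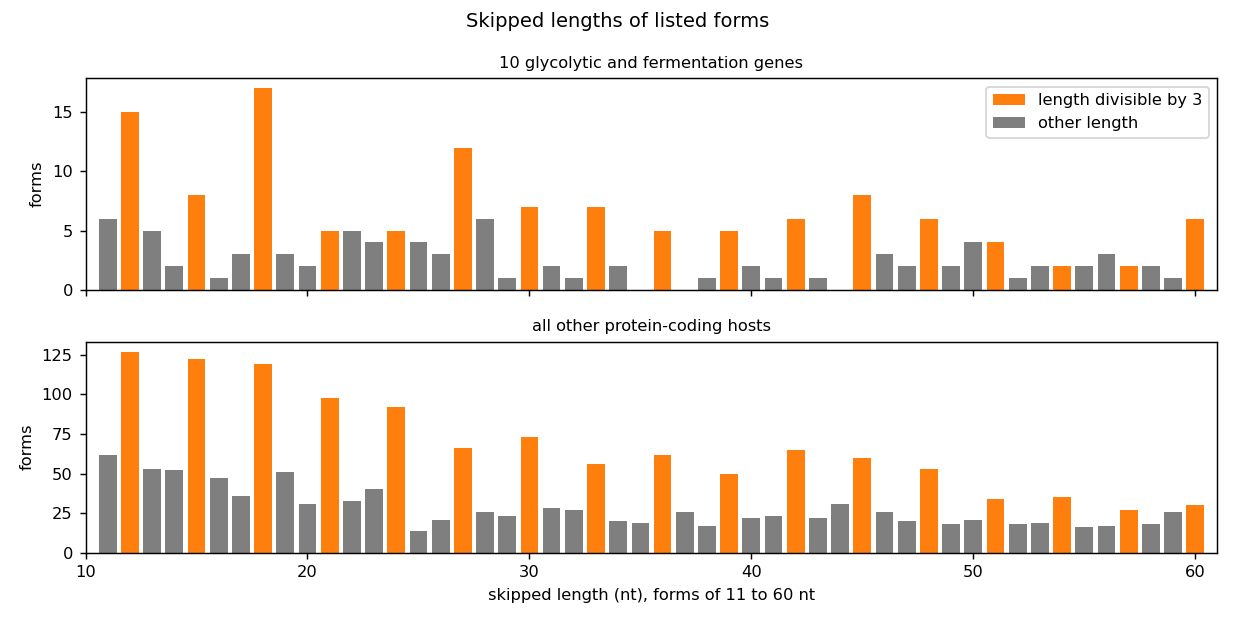
Number of forms at each skipped length from 11 to 60 nt, with the 10 genes above and all other protein-coding hosts below, on separate y axes, and lengths divisible by 3 in orange. In both panels the orange bars stand above their neighbours, with 15 member forms of 12 nt.

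GT and AG ends, on either strand, were found in 20 of 455 forms, 4.40% (Wilson interval 2.86 to 6.69), of which 17 were on the coding strand. The same ends were found in 15.6% of forms in other protein-coding hosts and in 8.74% of those without an annotated intron. Among forms with at least 10 reads the order against intronless hosts turned, with 17 of 266 forms here (6.39%) and 31 of 689 there. The heptamer TACTAAC, which holds the branch point adenosine of most yeast introns, was looked for on both strands of the skipped bases. It was in 0 of 455 forms (upper Wilson bound 0.837%), against 852 of 5211 forms in other protein-coding hosts and 173 of 4187 in those without an intron. The member forms overlap within 10 coding sequences and are not independent draws, so this bound is a description and sets no limit. An exact repeat of at least 5 nt across the gap was present in 72 forms, 15.8% (Wilson interval 12.8 to 19.5). It was present in 13.0% of forms in other protein-coding hosts and in 628 of 4187 in those without an annotated intron. Among forms of at least 50 nt the share was 16.4% (interval 12.5 to 21.1) here, 10.3% in other hosts and 13.1% in intronless hosts. Among forms with at least 10 reads these shares were 21.4%, 17.9% and 21.2%. In cell wall genes the share with a repeat was 20.7% among forms of at least 50 nt and 18.5% over all forms. Of all cell wall gene forms, 2.82% had GT and AG ends and 1.41% held TACTAAC. Overlapping forms share their sequence, so these intervals are descriptions and test no difference.

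A single p-value per form is given in the authors' deposited table, and the sources used here do not say what it tests. It was 1 for most of these rows and under 1 for 14. The 3 lowest were all PDC1 forms that begin with GTATG and end with CAG, with 65 reads for the gap at 233643 to 233957, 55 for 233643 to 233885 and 20 for 233630 to 233885. The first of these had a deposited p-value of 0.0105, and both others 0.00137. The other 11 lay in CDC19, PGK1, TDH3, ADH1, TDH2 and PDC1, and the most-read among them, an ADH1 gap of 56 nt at 159923 to 159978 with GT-AG ends, had 358 reads and a deposited p-value of 0.832. The longest form with at least 10 reads was a PDC1 gap of 1254 nt, at 232664 to 233917, with 56 reads.

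The paralogs were compared by aligned position, since their coding sequences are 95.8% identical for TDH2 and TDH3 and 94.8% for ENO1 and ENO2, and reads in shared stretches can be assigned to either copy. The 12-nt gap of TDH2 spans coding bases 265 to 276, and the second 12-nt gap of TDH3, with 14587 reads, spans bases 259 to 270, an offset of 6 nt between gaps of equal length. The most-read TDH3 gap, at coding bases 819 to 830, had no TDH2 form with both ends within 10 nt of its own. The 96-nt gap at coding bases 84 to 179 was listed at the same place in ENO1, with 2 reads, and in ENO2, with 22 reads. A 273-nt gap was listed in both enolase genes with an offset of 6 nt, with 3 reads in ENO1 and 1 in ENO2. Values for these 4 genes are therefore uncertain as to which copy the reads came from.

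The comparison of prp43-1 with PRP43 asks whether this allele of the spliceosome-disassembly helicase changes the level of the forms. Reads summed over the forms of each gene were lower in prp43-1 libraries for 3 glycolytic genes, ENO2, ENO1 and PGK1, and higher for CDC19. GPM1 had too few reads to be tested. Among the 9 genes tested, 4 passed an adjusted p under 0.05 in edgeR's quasi-likelihood test, against a background of 13.7% of the 117 hosts tested. By direction, 3 were lower, where the background was 5.98%, and 1 was higher, where it was 7.69%.

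ENO2, the enolase with more reads, had a lowest, median and highest level of 1369, 2049 and 2706 CPM in the 6 PRP43 libraries and of 793, 1047 and 1646 CPM in the 6 prp43-1 libraries. The groups overlapped, though each of the 6 pairs of libraries matched for SET genotype and temperature was lower in prp43-1. The log2 fold change was -0.84 (SE 0.22), with an adjusted p of 0.0281 in edgeR. ENO1 fell from a median of 253 CPM (75.4 to 355) to 82.2 CPM (15.6 to 172), with a log2 fold change of -1.45 (SE 0.45, edgeR adjusted p 0.0358). It was lower in 5 of 6 pairs, and its lowest library, prp43-1 at 37 °C, held 3 reads. PGK1, the kinase of the first ATP-forming step, had 7092, 8801 and 15164 CPM in PRP43 libraries and 4562, 6200 and 7552 CPM in prp43-1 libraries. It was lower in all 6 pairs, with a log2 fold change of -0.67 (SE 0.20, edgeR adjusted p 0.0358).

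CDC19, whose product makes pyruvate and the last ATP of the route, had 5344, 6059 and 7158 CPM in PRP43 libraries and 6974, 9538 and 13152 CPM in prp43-1 libraries. Only the prp43-1 set1Δ library at 37 °C, the lowest of its group, was below the highest PRP43 library. The log2 fold change was 0.66 (SE 0.21, edgeR adjusted p 0.0437), and 5 of 6 pairs were higher. FBA1 was higher in all 6 pairs with a log2 fold change of 0.38 (SE 0.22), but its edgeR adjusted p was 0.328. TDH3 had a log2 fold change of 0.25 (SE 0.20), ADH1 of 0.09 (SE 0.25), PDC1 of -0.23 (SE 0.23) and TDH2 of -0.39 (SE 0.36), none past the threshold. These 4 calls depended on the scaling and on single libraries. Without TMM factors 1 call remained, of 4 hosts called in all, and with DESeq2's size factors 1 of 9. Between 0 and 4 remained when a library or a strain was left out. With the temperatures of each strain summed, so that a strain counts once, CDC19 and ENO1 stayed called and ENO2 (edgeR adjusted p 0.156) and PGK1 (0.118) did not. All 4 genes kept their direction in every alternative run.

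**Figure D4:**
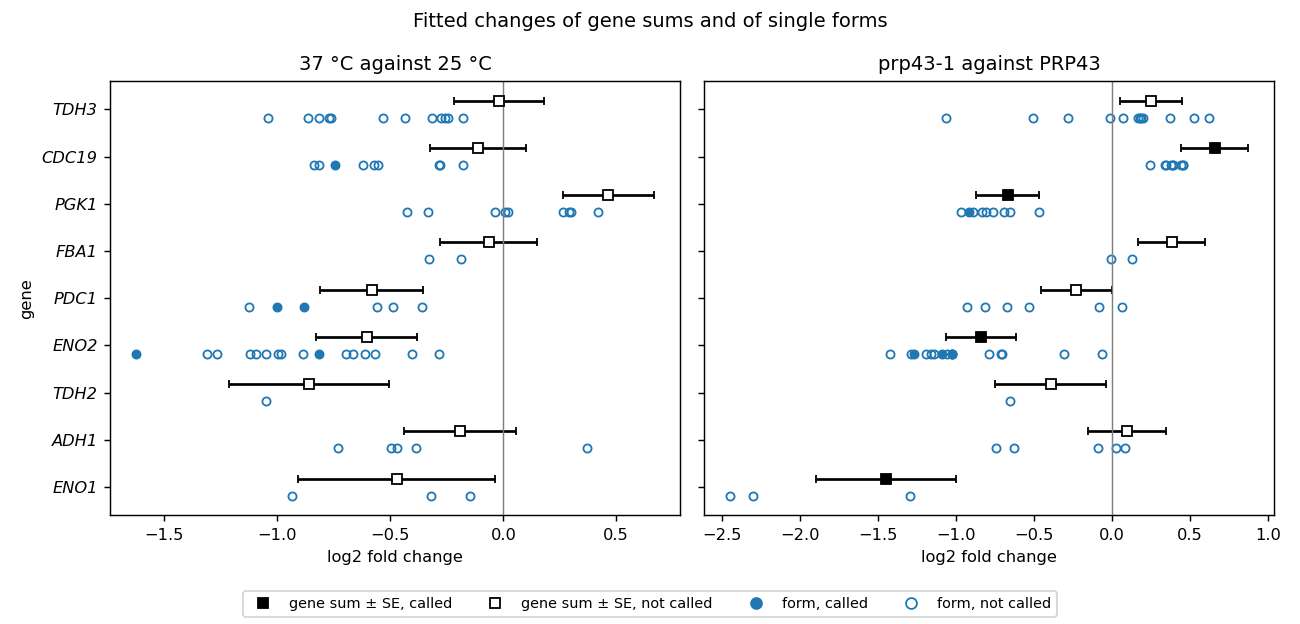
Fitted log2 fold changes at 37 °C against 25 °C on the left and in prp43-1 against PRP43 on the right, on different x scales, with squares and SE bars for gene sums and circles for single forms, filled where the adjusted p was under 0.05. In the right panel the circles of ENO2, PGK1 and ENO1 all lie below 0 and those of CDC19 all above. Circles of 1 gene share its level and are not independent.

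Ratios between member genes within a library do not depend on the scaling between libraries. The pairs were chosen after the values were seen and are given as descriptions. ENO2 had 24.8 to 50.6 reads per 100 CDC19 reads in the PRP43 libraries, with a median of 28.9, and 6.65 to 14.1 in the prp43-1 libraries, with a median of 12.9, so the groups did not overlap. PGK1 had 99.1 to 216 reads per 100 CDC19 reads with PRP43 and 46.9 to 108 with prp43-1, and 1 prp43-1 library, prp43-1 set1Δ at 37 °C, lay above the lowest PRP43 library. Against TDH3, the ENO2 ratio was 3.30 to 8.71 per 100 TDH3 reads with PRP43 and 1.58 to 3.47 with prp43-1, which overlapped. CDC19 had 12.5 to 17.6 reads per 100 TDH3 reads with PRP43 and 11.4 to 28.0 with prp43-1, which overlapped.

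**Figure D5:**
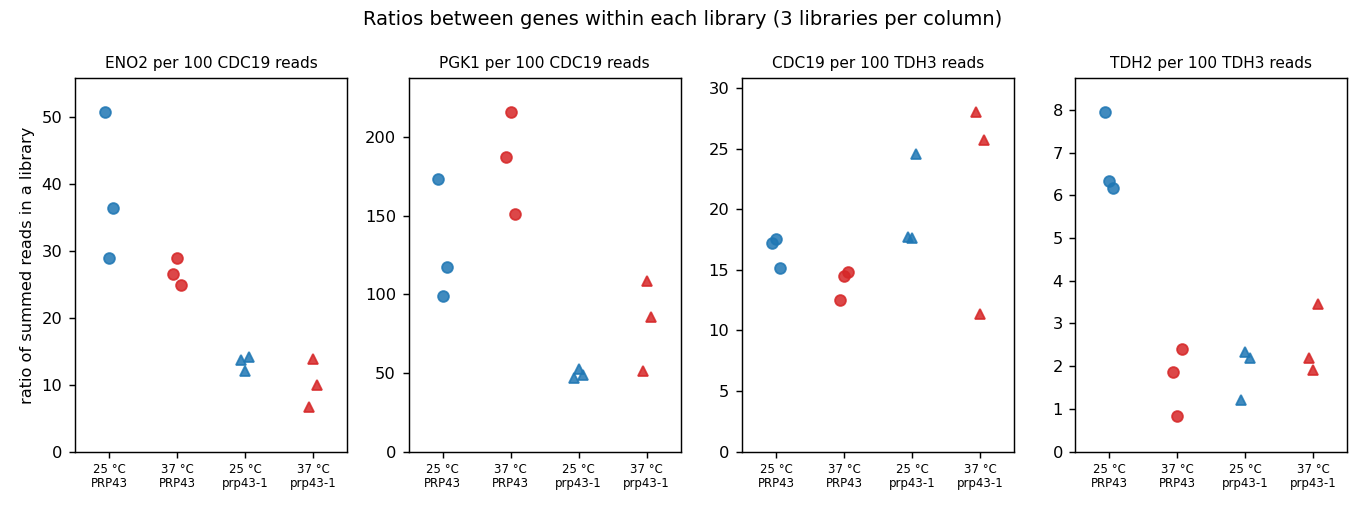
Ratios of summed reads between 2 genes in each library, per 100 reads of the second gene, in 4 columns of 3 libraries by temperature and PRP43 allele, with every y axis starting at 0. ENO2 per 100 CDC19 reads lies at 24.8 or above in each PRP43 library and at 14.1 or below in each prp43-1 library, and TDH2 per 100 TDH3 reads is above 6 only in the PRP43 libraries at 25 °C.

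At the level of single forms, 63 member forms were tested of 451. In prp43-1, 4 were called lower and 0 higher, where 2% of all forms tested were called lower and 3.99% in either direction. The 186-nt gap of ENO2 from 452122 had 318, 578 and 615 CPM in PRP43 libraries and 91.8, 253 and 342 CPM in prp43-1 libraries, overlapping groups, with a log2 fold change of -1.27 (SE 0.23, edgeR adjusted p 0.00442). The 42-nt gap of ENO2 from 451529 had 248, 306 and 356 CPM against 76.0, 141 and 241 CPM, with no overlap, and a log2 fold change of -1.09 (SE 0.21, edgeR adjusted p 0.00708). The 12-nt gap of PGK1 had 5754, 6131 and 11485 CPM against 3045, 4122 and 4525 CPM, also without overlap, and a log2 fold change of -0.92 (SE 0.20, edgeR adjusted p 0.0148). The fourth was the 648-nt ENO2 gap from 451480, at -1.03 (SE 0.23, edgeR adjusted p 0.0167), with 44.3 to 156 CPM in prp43-1 libraries, overlapping 136 to 276 CPM with PRP43. In all, 6 of the 63 member forms had prp43-1 libraries entirely below PRP43 libraries, as did 2% of all forms tested. Of the tested forms, 16 of 16 in ENO2, 9 of 9 in PGK1 and 3 of 3 in ENO1 had a fitted change below 0, and 9 of 9 in CDC19 above 0. In all, 42 of the 63 member forms were below 0, beside 252 of all 451 forms tested. Forms of a gene share its level and are not independent, so these counts are descriptions. The median over the 63 forms was -0.63, beside -0.06 over all 451. With protein-coding hosts only in the fit, 2 member forms were lower and 2 higher, of 9 forms lower and 5 higher in all. The member median was then -0.30 beside 0.02 over all forms. Both ENO2 gaps from 452122 and 451529 stayed called, while the PGK1 gap (edgeR adjusted p 0.0710) and the ENO2 gap from 451480 (0.0831) did not. With the temperatures of each strain summed, the ENO2 gap from 451480 also lost its call (edgeR adjusted p 0.0778).

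The share of a gene's reads that each form takes was tested apart from the gene's level. In edgeR's test of a form against the other forms of its host, 0 of 62 member forms tested were called for prp43-1, where 5 of 395 forms tested, 1.27%, were called in all. At an unadjusted p under 0.05 there were 3 member forms, beside 18 of all 395. For temperature 0 member forms were called and 0 of 395 forms in all, with 0 members at an unadjusted p under 0.05, beside 19 of all 395. A p that misses the threshold does not show that the shares were equal.

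The temperature comparison asks how 37 °C changes the forms across the 6 genotypes. No member gene passed the threshold at 37 °C in edgeR (0 of 9), where 5.13% of the 117 hosts were called, and DESeq2 also called 0. At an unadjusted p under 0.05 in edgeR there were 4 of the 9 member genes, beside 26 of all 117 hosts. PDC1, which commits pyruvate to fermentation, had 1288, 2023 and 2454 CPM at 25 °C and 985, 1233 and 1824 CPM at 37 °C, lower in 6 of 6 genotypes, with a log2 fold change of -0.58 (SE 0.23, edgeR adjusted p 0.182). ENO2 was lower in 6 of 6 as well, at -0.61 (SE 0.22, edgeR adjusted p 0.178). PGK1 was higher in 6 of 6, with 4562, 6392 and 9259 CPM at 25 °C and 6709, 7947 and 15164 CPM at 37 °C and a log2 fold change of 0.47 (SE 0.20, edgeR adjusted p 0.186). The groups of these 3 genes overlapped. TDH3, CDC19 and FBA1 had log2 fold changes of -0.02, -0.11 and -0.07, and their sign turned under some scalings.

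Single forms were lower at 37 °C where called. Of the 63 member forms tested, 5 were lower and 0 higher, where 2% of all forms were called lower, 5.99% higher and 7.98% in either direction. The 18-nt gap of PDC1 from 233017 had 870, 1253 and 1865 CPM at 25 °C and 389, 735 and 1017 CPM at 37 °C, lower in 6 of 6 genotypes, with a log2 fold change of -0.88 (SE 0.18, edgeR adjusted p 0.0163). A second 18-nt gap of PDC1, from 233584, had 65.3, 84.6 and 126 CPM at 25 °C and 34.8, 44.9 and 66.4 CPM at 37 °C (edgeR adjusted p 0.0316). The ENO2 gaps of 648 nt from 451490 and 451480 fell by 1.62 (SE 0.43, edgeR adjusted p 0.0344) and 0.82 (SE 0.23, edgeR adjusted p 0.0458) on the log2 scale. The fifth was the 1176-nt gap of CDC19, which removes most of its coding sequence, at -0.74 (SE 0.22, edgeR adjusted p 0.0493) and 584 to 1479 against 547 to 878 CPM. The groups of all 5 overlapped: 0 of the 63 forms had 37 °C libraries entirely below the 25 °C ones, against 0.443% of all forms tested. Of 18 fits that left out a library or a strain, the call held in 12 for the PDC1 gap from 233017 and 8 for the ENO2 gap from 451490. It held in 4 for the ENO2 gap from 451480, 3 for the CDC19 gap and 2 for the PDC1 gap from 233584. In a fit that pairs the libraries of each strain with a genotype block, 2 of the 5 calls remained, those of the PDC1 gap from 233017 and the ENO2 gap from 451490, and 3 were lost, the PDC1 gap from 233584 (edgeR adjusted p 0.0560), the CDC19 gap (0.0736) and the ENO2 gap from 451480 (0.0836).

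In 56 of the 63 forms the fitted change with temperature was below 0, beside 236 of all 451 forms. The median was -0.55 beside -0.03 over all 451 forms. Forms of a gene share its level and are not independent, so counts of forms by sign are descriptions. Other genes shared this direction. Tested forms of ribosomal protein and translation factor genes were below 0 in 32 of 39 cases (median -0.58). Those of heat shock genes were below 0 in 4 of 4 (median -0.91) in the fit over all libraries, but this differed by PRP43 allele. In PRP43 strains 3 of 5 heat shock forms (median 0.07) and 4 of 5 gene sums (median 1.63) were above 0. In prp43-1 strains 5 of 5 forms (median -1.54) and 4 of 5 gene sums (median -0.33) were below 0. Forms of cell wall genes went the other way, with 81 of 102 above 0 and a median of 0.74. These forms came from few genes, and the gene sums did not share that direction. Of 8 cell wall genes tested, 4 were above and 4 below 0 (median -0.06), beside a median of -0.19 for the 9 member genes. All 12 tested forms of TDH3, 16 of ENO2 and 9 of CDC19 were below 0, while PGK1 had 6 of 9 above 0. The fit of forms and the fit of gene sums scale the libraries separately, so their values are not on 1 scale. The count of called forms depended on that scaling. With only protein-coding hosts in the fit, 20 member forms were lower and 0 higher, of 41 forms lower and 50 higher in all. Without TMM factors 1 member form was lower, of 2 forms lower and 1 higher in all.

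TDH2, one of the glyceraldehyde-3-phosphate dehydrogenases, was compared between temperatures within each PRP43 allele. Its summed level at 25 °C was 2469 CPM in WT, 2577 in set1Δ and 2681 in set2Δ. At 37 °C it was 818 CPM in WT, 398 in set1Δ and 891 in set2Δ, all below the 25 °C libraries. With prp43-1 the levels at 25 °C were 668 CPM alone, 1234 with set1Δ and 1039 with set2Δ, and at 37 °C 1030, 1165 and 1065 CPM, so the prp43-1 libraries overlapped between temperatures.

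Among PRP43 strains TDH2 was 3.58-fold lower at 37 °C, with a log2 fold change of -1.84 (SE 0.37, edgeR adjusted p 0.00225). It was the only member called in that contrast, where 5.11% of 137 hosts were called in either direction and 1.46% lower. The call was lost without TMM factors (edgeR adjusted p 0.128) and without set2Δ at 25 °C (0.0530). In prp43-1 strains the log2 fold change was 0.13 (SE 0.36, edgeR adjusted p 0.859). The difference between these changes was 1.97 (SE 0.51) on the log2 scale, with an unadjusted p of 0.000709 and an edgeR adjusted p of 0.0835, so it did not pass the threshold, and 0 of 137 hosts did. Of 76 member forms tested for the interaction, 0 passed. At an unadjusted p under 0.05 in edgeR there were 7 of the 76, beside 54 of all 513 forms. The TDH2 difference passed in 3 of 18 fits that left out a library or a strain, for example at an edgeR adjusted p of 0.0431 without prp43-1 set1Δ at 25 °C. In the other 15 it did not pass, and the edgeR adjusted p over the 18 fits ran from 0.0248 to 0.267. Over all alternative runs the difference was as low as 1.07 and the edgeR adjusted p as high as 0.456. The TDH2 change rests on its 12-nt gap, which had 788, 807 and 832 reads in WT, set1Δ and set2Δ at 25 °C and 293, 109 and 218 at 37 °C. In the fit of single forms this gap was at -1.74 (SE 0.39, edgeR adjusted p 0.0496) in PRP43 strains, where 1.36% of 513 forms were called in either direction and 0.39% lower. The second 12-nt gap of TDH3, near the same aligned place, had 853, 1033 and 1079 reads in WT, set1Δ and set2Δ at 25 °C and 1765, 581 and 1086 at 37 °C, fewer at 37 °C in set1Δ only. Its fitted log2 change in PRP43 strains was 0.40 (SE 0.42, edgeR adjusted p 0.643). As a ratio free of scaling, TDH2 had 7.94, 6.33 and 6.17 reads per 100 TDH3 reads in WT, set1Δ and set2Δ at 25 °C, and 1.85, 0.824 and 2.39 at 37 °C.

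A table of gaps hardly checks the genotypes: no set1Δ or set2Δ library held a read on its deleted gene, but over all 12 libraries SET1 forms drew 2 reads and SET2 forms 0. Neither deletion of a histone methyltransferase changed a member gene past the threshold. For set1Δ 0 of 9 member genes and 0 of 63 forms were called in edgeR, and for set2Δ likewise, where 0% of all hosts and forms were called. At an unadjusted p under 0.05 in edgeR there were 0 member genes in each contrast. There was 1 member form for set1Δ and 0 for set2Δ, beside 15 and 17 of all 451 forms. DESeq2, run without the read filter on 454 member forms, called 2 of them for set1Δ and 4 for set2Δ. In those runs 39 forms were called in all for set1Δ and 36 for set2Δ. The log2 fold changes of the genes ranged from -0.06 for CDC19 to 0.29 for ENO1 with set1Δ and from -0.30 for PDC1 to 0.30 for ENO1 with set2Δ. PDC1 was lower in 4 of 4 set2Δ pairs and TDH2 higher in 4 of 4. Forms of 4 of 4 α-specific genes, which cells of mating type a should not express, had 231 reads over the table, at 2 to 99 in both set1Δ libraries with PRP43 and in the 4 set2Δ libraries and 0 in the other 6. With set1Δ these reads were 61 at 25 °C and 16 at 37 °C in the PRP43 libraries, and 0 at both temperatures with prp43-1. The prp43-1 comparison therefore also holds libraries that differ in these reads. Their part in the set1Δ, set2Δ and prp43-1 results was not tested.

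Other genes of central carbon metabolism gave few forms. Of 33 such genes, from hexokinases to alcohol and aldehyde dehydrogenases and regulators, 19 had a listed form, with 82 forms and 2805 reads. TDH1, a further glyceraldehyde-3-phosphate dehydrogenase gene, had 1927 of these reads, PGI1, phosphoglucose isomerase, 554 and GCR1, a transcription activator of glycolytic genes, 151. These 3 were the ones tested, and 0 were called for temperature, prp43-1, set1Δ or set2Δ. The triosephosphate isomerase gene TPI1 had 29 reads. TDH1 had log2 fold changes of 0.35 (SE 0.27) with temperature and -0.01 (SE 0.27) with prp43-1, beside -0.86 and -0.39 for TDH2.

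Facts of the whole series bear on these values as follows. The column totals, which count listed gaps only and are not library depth, ran from 214055 to 402886 reads, and reads on protein-coding hosts from 25404 to 56868. Member genes took 41.9% of the latter in prp43-1 set2Δ at 37 °C and 61.8% in prp43-1 at 25 °C. The TMM factors of the fit of gene sums ranged from 0.648 to 1.69, and leaving them out moved the median log2 fold change over all hosts by -0.36 for temperature and -0.27 for prp43-1.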

How the data were processed

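Per the labels' protocols, TruSeq libraries were made from hot-phenol RNA after DNase treatment and ribosomal RNA depletion. Per the submitters' processing notes, CASAVA, STAR 2.4.0 and sacCer3 were used. The deposited table holds 1 row per form with whole-number read counts per library, not normalized, per the file headers and values, and a p-value per form, deposited by the authors, whose test is not given in the sources used here. Each count column matched the title of 1 sample, and 0 were left unmapped. Total reads per library are unknown.

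The build was checked against R64: at the listed coordinates, 729 of the 1112 forms with the authors' p-value below 1 had GT-AG ends. Counts per form, and counts summed per host, were fitted with edgeR 4.0.16 in R 4.3.3 (quasi-likelihood test, filterByExpr, TMM factors on column totals, Benjamini-Hochberg adjustment over all features tested, threshold 0.05). The model held SET status, prp43 status and temperature, and a second model their interaction. The common biological coefficient of variation was 40.9% for hosts and 33.6% for forms. Use of a form within its host was tested with diffSpliceDGE. Standard errors are the absolute log2 fold change over the root of F and are approximate. DESeq2 1.42.0 was an alternative. On simulated data with 4-fold changes set in the temperature comparison (2 on the log2 scale), 96.6% of changed genes, 94% of forms and 89% of form shares were recovered. Changes were set in 58 of 117 hosts and 200 of 451 forms, and 2 hosts and 3 forms were called falsely. Smaller changes were not simulated, so recovery at the size of most member changes is not known. Levels in CPM are counts relative to the column totals scaled with these factors, so a change is relative to the other listed features. The labels do not say whether libraries are separate cultures beyond their genotype and temperature.

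Named were the 10 genes, up to 10 called forms per contrast, the most-read form per gene, forms with a deposited p-value under 1, the longest form with at least 10 reads, and forms at like positions in paralogs. The members and lists were chosen with earlier results of these data known. Other forms named, such as the second TDH3 gap, were chosen after their values were seen.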

Additional observations from a re-analysis of the deposited data

Results flagged for a closer look

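Gene sums in groups of 6 libraries were searched for a library far from the others, by the gap to its nearest neighbour as a share of the group's range. Of 36 groups, 3 held such a library, and chance alone flags about 1 group in 20. Each group mixes genotypes, so a genotype can stand apart for its own reasons. TDH2 in the 37 °C libraries was lowest in set1Δ, at 398 CPM with 111 reads, where the nearest library, WT, had 818 CPM, a gap of 0.67 of the range. TDH2 in the prp43-1 libraries was lowest in prp43-1 at 25 °C, at 668 CPM with 162 reads against 1030 CPM in prp43-1 at 37 °C, a gap of 0.707 of the range. FBA1 in the 25 °C libraries was lowest in WT, at 1337 CPM with 429 reads against 2110 CPM in prp43-1, a gap of 0.658 of the range.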

How the results depend on the processing

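The labels carry no replicate numbers, and a genotype block, which pairs the 25 °C and 37 °C libraries of each strain, was fitted for temperature. Use of forms within a host gave 0 member calls in every alternative run. Member genes called for prp43-1 were 4 of 16 hosts called in all. They were 1 of 4 without TMM factors, 1 of 9 with DESeq2's size factors, 1 of 16 with DESeq2 and 0 of 11 with no filter. They were 2 of 21 with a strain's temperatures summed and 2 of 5 with forms of at least 50 nt. Leaving out 1 library or strain gave 0 to 4, with 0 without WT at 37 °C, set2Δ at 25 °C, or prp43-1 at either temperature. Of 18 such fits, the call held in 3 for CDC19 (log2 0.56 to 0.85), 6 for PGK1 (-0.87 to -0.41), 7 for ENO1 (-2.05 to -0.86) and 7 for ENO2 (-0.998 to -0.65). Member forms called for temperature were 5 of 36 forms called in all. They were 1 of 3 without TMM factors and 20 of 91 with protein-coding hosts only. They were 2 of 14 with no filter and 2 of 30 with the genotype block. Over left-out libraries or strains they were 0 to 15, with 15 of 60 without WT. Member forms called for prp43-1 were 4, all lower, of 18 forms called in all. They were also 4 with protein-coding hosts only, with 2 of the 9 lower and 2 of the 5 higher calls. Over left-out libraries or strains they were 0 to 11, with 11 of 38 without set1Δ at 37 °C. DESeq2, which tested 454 member forms, called 2 for set1Δ and 4 for set2Δ, of 39 and 36 forms called in all. EdgeR called 0 of 63 in each. Genes called were 0 to 1 for temperature over left-out libraries. TDH2 was called without prp43-1 at 25 °C, where 10 hosts were called in all. ENO2 was called without the most-read form of each host, where 5 hosts were called in all. For the interaction 0 to 1 were called. TDH2 in PRP43 strains ranged from -2.20 to -1.47, and its call was lost without TMM factors (adjusted p 0.128) and without set2Δ at 25 °C (0.0530). Signs that turned were all of uncalled genes. For temperature, TDH3 was 0.0245 with DESeq2's size factors, 0.116 with coding hosts only and -0.12 to 0.13 over left-out libraries, CDC19 0.00071 with coding hosts only and -0.21 to 0.00013, FBA1 0.0599 with coding hosts only, 0.0789 without the most-read form and -0.17 to 0.0136, ENO1 0.0508 without the most-read form, and ADH1 -0.32 to 0.0120. For prp43-1, TDH3 was -0.0721 and ADH1 -0.18 without TMM factors, ADH1 -0.12 without the most-read form and -0.0705 to 0.41 over left-out libraries, PDC1 0.0256 with forms of at least 50 nt, and TDH2 -0.72 to 0.0275. The cause was not tested. The share of forms with a direct repeat was 15.8%, 21.4% among forms with at least 10 reads, 20.4% at 4 nt and 5.49% at 8 nt. Low counts limit ENO1 and GPM1 most.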
